A study of Mus musculus with 20 samples.

Results

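Imprinted genes are expressed mainly from the copy inherited from one parent, and 38 of them were followed here through the induction of a germ cell programme in mouse cells. The list was drawn up by name from well-known imprinted domains, with earlier results of these data known, so the shares of these genes called below are descriptions and not independent tests. Each gene was read from the probe set that carries its symbol alone and has the highest mean over all 20 arrays. A probe set naming only that gene was found for 36 of the 38 genes on an array with 18193 named genes. H19 and Zrsr1 had none and were not analysed here. Of these 36 genes, 33 reached a group mean of 3.95 on the log2 scale, the 40th percentile of all values and the level used here as the limit between dim and measurable probe sets. Usp29, Zim1 and Peg10 stayed below it, with highest group means of 3.43, 1.40 and 3.92, and were not tested.

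The study asked which genes respond to Blimp1, Prdm14 and Tfap2c, the transcription factors that specify primordial germ cells, the founders of eggs and sperm. All cells came from male embryonic stem cells of mixed C57BL/6 and 129 background, grown without feeders in 2i medium with LIF. Every line, the parental control BVSCR26rtTA included, carried Blimp1-mVenus and stella-ECFP reporters and the doxycycline-responsive activator rtTA at Rosa26. The B line added a doxycycline-inducible Avi-Blimp1 transgene, the P14 line a 3xFLAG-Prdm14 transgene and the A line a V5-Tfap2c transgene, while BP14A carried all 3, each in a piggyBac vector. Each line was taken as epiblast-like cells (EpiLCs) at 36 h, before doxycycline, and as day 1 aggregates. The aggregates were started from 2000 cells per well in GK15 medium without added cytokines and collected after 24 h with doxycycline at 1.5 µg/ml, in the parental line too. With 5 lines, 2 stages and 2 biological replicates this gave 20 arrays. The derived lines are represented by 1 clone each, and the effect of a factor cannot be told apart from that of its clone. Aggregates without doxycycline were not among the samples, so aggregation, medium, time and doxycycline cannot be told apart in a change from EpiLCs to day 1.

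Values are log2 signals as deposited, with array medians between 4.60 and 4.86, and 2 arrays a group limit the precision. A difference of 1 is a 2-fold difference. A gene was called, and is said to have risen, fallen or differed, when limma's adjusted p was under 0.05 and the difference was at least 1 in size. The genes taken to mark epiblast were Pou5f1, Fgf5, Otx2, Pou3f1 and Dnmt3b. Their mean level was 11.67 to 11.91 in all EpiLCs and in parental and A aggregates. It was 10.94 to 11.05 in B, 10.43 to 10.48 in P14 and 9.52 to 9.59 in BP14A aggregates. The 4 measured early germ cell genes, Dppa3, Prdm1, Tfap2c and Kit, stood at 5.67 to 6.20 in all EpiLCs and in parental and A aggregates. In B, P14 and BP14A aggregates they stood at 7.91 to 8.34, 8.88 to 9.04 and 10.05 to 10.18. Prdm1, the gene of Blimp1, and Tfap2c are also transgene factors, so this mean is not independent of the transgenes. Dppa3 and Kit by themselves were called higher than parental in B (2.68 and 1.03), P14 (3.64 and 1.25) and BP14A (5.36 and 2.02). The epiblast genes did not move together. Against parental on day 1, only Otx2 was called lower in B (-1.49), and only Pou3f1 (-3.31) and Dnmt3b (-2.07) in P14. In BP14A these were Otx2 (-1.75), Pou3f1 (-4.87) and Dnmt3b (-3.34). Dnmt3b is also on the list of imprint regulators below. Fibroblast, extraembryonic endoderm, trophoblast and mesoderm lists all had mean levels near the limit of 3.95, the highest being 4.88, but single markers on them moved. On day 1 the fibroblast marker Thy1 differed from parental by -3.04 in BP14A and -2.62 in P14, the endoderm marker Foxa2 by -1.17 and -1.50 and the mesoderm marker Mixl1 by -2.81 in BP14A, all called. No other marker on these 4 lists was called on day 1 against parental. Tfap2c read 5.94 on average in A aggregates against 6.33 in parental aggregates, which goes against the label of the A line. Whether the probe set reads the transgene was not tested. Prdm14 read 3.50 to 4.04 on day 1 in all lines, no higher in P14 (3.50) than in parental aggregates (3.63) and at the limit in BP14A (4.04), which goes against the labels of these lines in the same way, and whether its probe set reads the transgene was not tested either. The lines are called by their labels below. Prdm1 averaged 4.96 in parental, 6.36 in B and 8.67 in BP14A aggregates. It was also higher than parental in P14, a line labelled without the Blimp1 transgene, by 2.35 against 1.40 in B. The Y-linked gene Eif2s3y averaged 9.48 in parental EpiLCs but 1.68 in B and 4.61 in P14 EpiLCs, although all lines are labelled male. The part of these marker and Y-linked differences in the results below was not tested.

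Imprinted genes lie in clusters under an imprinting control region, a stretch of DNA methylated on only the maternal or only the paternal copy. The mark is set in the germ line, kept through the early embryo with the help of ZFP57, and erased in primordial germ cells before it is set again. Many maternally expressed genes restrain growth of embryo or placenta, and many paternally expressed genes promote it. The arrays measured total RNA of a gene. They do not tell the parental copies apart and do not measure methylation.

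The promoters of 5 genes whose RNA differed between lines on day 1 are shown as RefSeq gives them (GRCm38.p6), each from 250 bases before to 50 bases after an annotated start and written 5′ to 3′ on the gene's own strand. Capitals mark matches, on either strand, to the ZFP57 motif TGCCGC, the BLIMP1 motif AGNGAAAG, the PRDM14 motif GGTCTCTAA or the TFAP2 motif GCCNNNGGC, and no marked matches overlap. Nap1l5, low on day 1 in the P14 and BP14A lines, lies at chr6:58907077-58907376 on the minus strand. Phlda2, high in the P14 line, lies at chr7:143502475-143502774 on the minus strand. The upstream start of Zdbf2, also high in the P14 line, lies at chr1:63200108-63200407 on the plus strand. Peg3, which stayed high in the B, P14 and BP14A lines, lies at chr7:6730370-6730669 on the minus strand. The upstream start of Meg3 lies at chr12:109540746-109541045 on the plus strand. Meg3 was called lower on day 1 in BP14A than in B, but was not called against parental in BP14A or P14.
Nap1l5: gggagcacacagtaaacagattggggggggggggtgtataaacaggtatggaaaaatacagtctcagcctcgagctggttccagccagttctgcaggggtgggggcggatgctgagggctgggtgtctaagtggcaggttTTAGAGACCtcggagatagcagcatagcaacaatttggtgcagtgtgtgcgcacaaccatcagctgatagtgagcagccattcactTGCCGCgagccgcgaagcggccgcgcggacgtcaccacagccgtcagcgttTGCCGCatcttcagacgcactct
Phlda2: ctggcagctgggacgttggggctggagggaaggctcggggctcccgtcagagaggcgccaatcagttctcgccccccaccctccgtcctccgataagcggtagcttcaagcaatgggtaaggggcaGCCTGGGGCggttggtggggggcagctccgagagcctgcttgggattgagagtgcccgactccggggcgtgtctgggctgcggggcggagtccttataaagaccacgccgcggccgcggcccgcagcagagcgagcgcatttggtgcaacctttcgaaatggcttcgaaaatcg
Zdbf2: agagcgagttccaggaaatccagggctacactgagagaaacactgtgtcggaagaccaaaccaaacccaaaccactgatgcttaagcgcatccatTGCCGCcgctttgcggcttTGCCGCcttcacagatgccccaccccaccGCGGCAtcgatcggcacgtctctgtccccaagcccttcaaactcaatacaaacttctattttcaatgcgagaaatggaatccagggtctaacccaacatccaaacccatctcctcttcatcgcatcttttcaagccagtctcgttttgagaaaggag
Peg3: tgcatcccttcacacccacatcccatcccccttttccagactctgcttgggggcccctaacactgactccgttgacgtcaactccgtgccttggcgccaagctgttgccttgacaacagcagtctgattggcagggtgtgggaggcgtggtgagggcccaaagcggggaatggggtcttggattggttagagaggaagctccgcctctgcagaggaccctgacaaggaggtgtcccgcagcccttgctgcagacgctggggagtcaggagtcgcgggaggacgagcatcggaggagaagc
Meg3: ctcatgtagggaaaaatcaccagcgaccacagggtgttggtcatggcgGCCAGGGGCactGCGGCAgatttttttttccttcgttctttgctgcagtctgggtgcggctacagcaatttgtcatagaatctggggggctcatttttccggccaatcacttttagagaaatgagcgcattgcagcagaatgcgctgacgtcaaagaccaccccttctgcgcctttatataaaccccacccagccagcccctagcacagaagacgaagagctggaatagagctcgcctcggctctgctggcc
Nap1l5 held 1 PRDM14 match, the only such match among 49 windows of 32 of the genes. That motif occurs in 0.256% of the 32851 promoter windows of RefSeq. The ZFP57 motif was found in 12 member windows, with 2 matches in Nap1l5, 3 in Zdbf2 and 1 in Meg3, and in 11.6% of all windows. The TFAP2 motif, present once each in Phlda2 and Meg3, was found in 9 member windows and in 16.6% of all. The BLIMP1 motif was in none of the 5 printed windows, in 3 member windows (Asb4, Rian and Ndn) and in 8.63% of all. The window of Peg3 held none of the 4 motifs. A match is a run of letters and not evidence of binding.

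The Dlk1-Dio3 domain on chromosome 12 makes long noncoding RNAs, Meg3, Rian and Mirg, from the maternal copy and the Notch-like ligand Dlk1 from the paternal copy. On day 1 Mirg was lower in the BP14A and P14 lines than in the parental line, Rian was lower in BP14A, and Meg3 lay on the same side without reaching the limit. None of the 3 differed between lines in EpiLCs. Mirg read 8.61 and 8.61 in the parental aggregates, 7.32 and 7.44 in BP14A, 7.32 and 7.59 in P14, 9.23 and 8.97 in B and 8.67 and 8.70 in A. The BP14A and P14 arrays lay together below all others, and the B arrays above them all. In EpiLCs all 10 arrays of Mirg lay between 8.53 and 8.82. The difference from parental on day 1 was -1.23 ± 0.10 (SE, n = 2 a group) in BP14A, with an adjusted p of 2.97e-06, and -1.15 ± 0.10 in P14, with an adjusted p of 6.52e-06. Averaged with its second probe set, Mirg gave -0.84 and -0.66, under the limit. Among all 14010 genes tested, 6.62% were called in BP14A against parental on day 1 and 5.38% in P14 against parental. In bulk samples, fewer cells that make an RNA and less RNA per cell cannot be told apart.

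Rian, the host of C/D small nucleolar RNAs, read 12.06 and 11.85 in parental aggregates, 10.34 and 11.07 in BP14A, 11.06 and 10.97 in P14, 12.33 and 11.85 in B and 12.00 and 11.65 in A. No BP14A or P14 array reached the lowest of the other lines, and the BP14A arrays lay 0.73 apart. The BP14A line was -1.25 ± 0.21 from parental (adjusted p 0.000737), but without the first BP14A aggregate this came to -0.88 and was no longer called. P14 was -0.94 from parental and not called. Meg3, the transcript at the head of the domain, read 11.97 and 12.10 in parental aggregates, 10.80 and 11.43 in BP14A, 11.32 and 11.22 in P14, 12.46 and 12.06 in B and 11.97 and 11.66 in A. Its differences from parental were -0.92 ± 0.18 in BP14A (adjusted p 0.0018) and -0.76 ± 0.18 in P14 (adjusted p 0.00711), both under the limit of 1. The array holds 11 probe sets for Meg3, which share the same libraries. All 11 were lower than parental in BP14A, 5 of them called, and all 11 were lower in P14, 4 of them called, while all 11 were higher in B with 0 called. Dlk1, on the opposite parental copy, read 3.31 to 4.86 over all arrays, near the limit, and was called in no comparison.

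**Figure D1:**
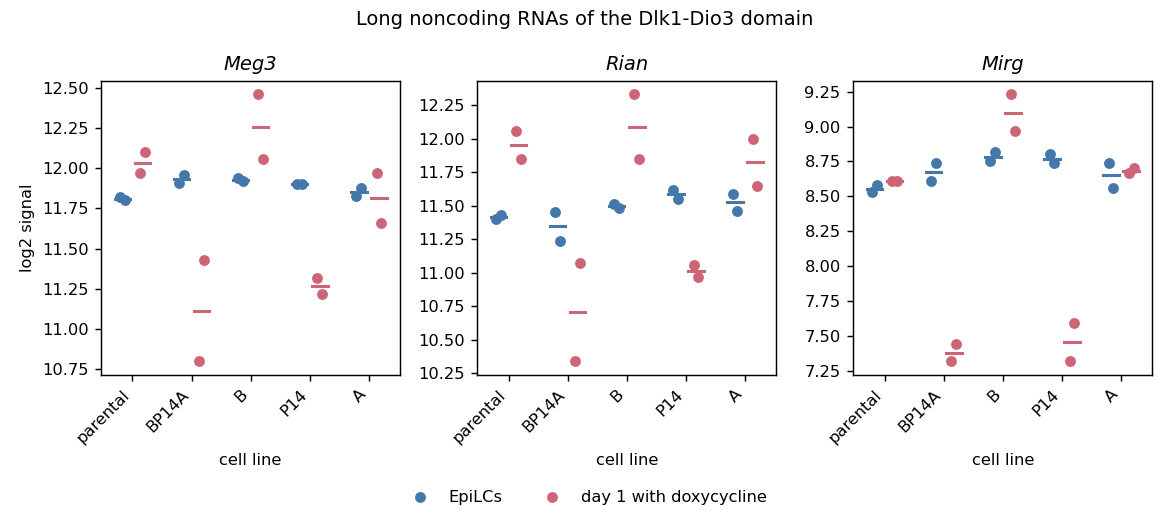
Log2 signal of Meg3, Rian and Mirg in each array (points) with the group mean (bar), for EpiLCs and day 1 aggregates of 5 lines. In EpiLCs the lines lie together, and on day 1 the BP14A and P14 arrays lie below the other lines, for Mirg at 7.32 to 7.59 against 8.61 to 9.23.

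The change of each line from EpiLCs to day 1 was also set against the parental change, which removes a difference that was there before doxycycline. By this measure 24.2% of the 33 genes were called in BP14A against 6.95% of all genes. In P14 it was 24.2% against 4.55%, and in B 6.06% against 2.4%. Peg12, which passed the filter only through aggregates where it is high, is counted in each of these lines. For Mirg, BP14A and P14 differed from the parental change by -1.35 ± 0.15 and -1.37 ± 0.15, with adjusted p values of 5.21e-05 and 7.6e-05. Rian gave -1.18 in BP14A and -1.11 in P14, both called. Meg3 gave -1.04 in BP14A (adjusted p 0.011) and -0.85 in P14, where it was not called. The Meg3 and Rian values rest on wider spreads than that of Mirg, and leaving out some single arrays ended their calls.

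Meg3, Rian and Mirg are also hosts of microRNAs, small RNAs that pair with messengers through bases 2 to 8, their seed. By position, RefSeq (GRCm38.p6) places 1 hairpin within Meg3, 3 within Rian and 10 within Mirg. Counted separately, 3, 6 and 19 mature sequences lie within the same spans. Only 1 seed is shared among these, by a pair within Mirg, shown with the seed in capitals.
mmu-miR-453: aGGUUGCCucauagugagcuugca
mmu-miR-496a-5p: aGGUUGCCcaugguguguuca
The arrays read the host RNAs and not these mature microRNAs.

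Peg3, a paternally expressed zinc finger protein, was higher on day 1 in the BP14A, B and P14 lines than in the parental line. Over time Peg3 fell in the parental and A lines and was not called in the other 3. Peg3 read 10.88 to 11.04 in all 10 EpiLC arrays. On day 1 it read 9.88 and 9.79 in parental and 9.79 and 9.71 in A aggregates, but 11.06 and 11.37 in BP14A, 11.31 and 11.25 in B and 11.11 and 11.12 in P14. The 4 parental and A arrays lay more than 1 unit below the other 6, with no overlap. From EpiLCs to day 1 Peg3 fell by 1.12 in the parental line (SE 0.09, adjusted p 2.21e-06) and by 1.16 in the A line. Against parental on day 1 it was higher by 1.38 ± 0.09 in BP14A (adjusted p 2.78e-07), 1.45 ± 0.09 in B (adjusted p 9.06e-07) and 1.28 ± 0.09 in P14 (adjusted p 7.61e-07). These comparisons share the parental arrays, so they are not independent of each other. Among all genes 2.6% were called in B against parental on day 1. Of 3 Peg3 probe sets past the filter, 3 were called in BP14A, 3 in B and 2 in P14. Averaged with the dim probe sets as well, Peg3 gave 0.68, 0.55 and 0.60, and the call ended in all 3 lines.

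Peg12, a paternally expressed intronless gene of the Prader-Willi region on chromosome 7, was measured only near background. It read 2.57 and 1.64 in parental, 4.84 and 4.97 in BP14A, 4.10 and 4.51 in B, 3.60 and 3.82 in P14 and 1.57 and 1.89 in A aggregates. Only the BP14A and B aggregates lay above the limit of 3.95, and replicates below it lay up to 1.87 apart in EpiLCs. The fitted difference from parental was 2.80 in BP14A, 2.20 in B and 1.60 in P14. It met the limits for a call in these lines and is in the counts, but Peg12 passed the filter only through the BP14A and B aggregates, the groups where it is high, with 8 groups below it, so its calls are no support for a difference. With all values below 3.95 raised to it, these became 0.96, 0.35 and 0.00, and no call was left.

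Other Prader-Willi genes were measured above the limit. Ndn, a neuronal growth suppressor, was not called over time or against parental by its brightest probe set, and read 8.71 and 8.86 in parental, 9.13 and 9.25 in B, 8.01 and 8.08 in BP14A and 7.93 and 7.90 in P14 aggregates. The BP14A and P14 arrays lay below all parental, B and A aggregates. All 6 tested probe sets of Ndn were lower than parental in both lines, with 1 called in P14 and 0 in BP14A. Magel2, Snrpn, Mkrn3 and the maternally expressed ubiquitin ligase Ube3a were called in no comparison.

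Phlda2, a maternally expressed gene of the Kcnq1 domain on chromosome 7 that restrains placental growth, separated the lines in opposite directions on day 1. It read 9.31 and 9.13 in parental, 10.52 and 10.38 in P14, 10.18 and 10 (to 2 decimals) in BP14A, 8.31 and 8.28 in B and 8.86 and 8.91 in A aggregates. In EpiLCs all 10 arrays lay between 9.89 and 10.24. From EpiLCs it fell by 1.63 in B (SE 0.08, adjusted p 5.08e-08) and by 1.15 in A. The parental line changed by -0.98 ± 0.08 (adjusted p 4.09e-06), just under the limit, and by -1.06 with quantile normalization, where it was called. The P14 line was higher than parental on day 1 by 1.23 ± 0.08 (adjusted p 6.74e-07), with no overlap of any line's arrays with those of another. BP14A was 0.87 above and B 0.92 below parental (log2 differences of 0.87 and -0.92), both under the limit. Against the parental change over time, the P14 line gave 1.48 ± 0.12 and BP14A 1.01 ± 0.12, the latter becoming 0.99 when array medians were centred.

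**Figure D2:**
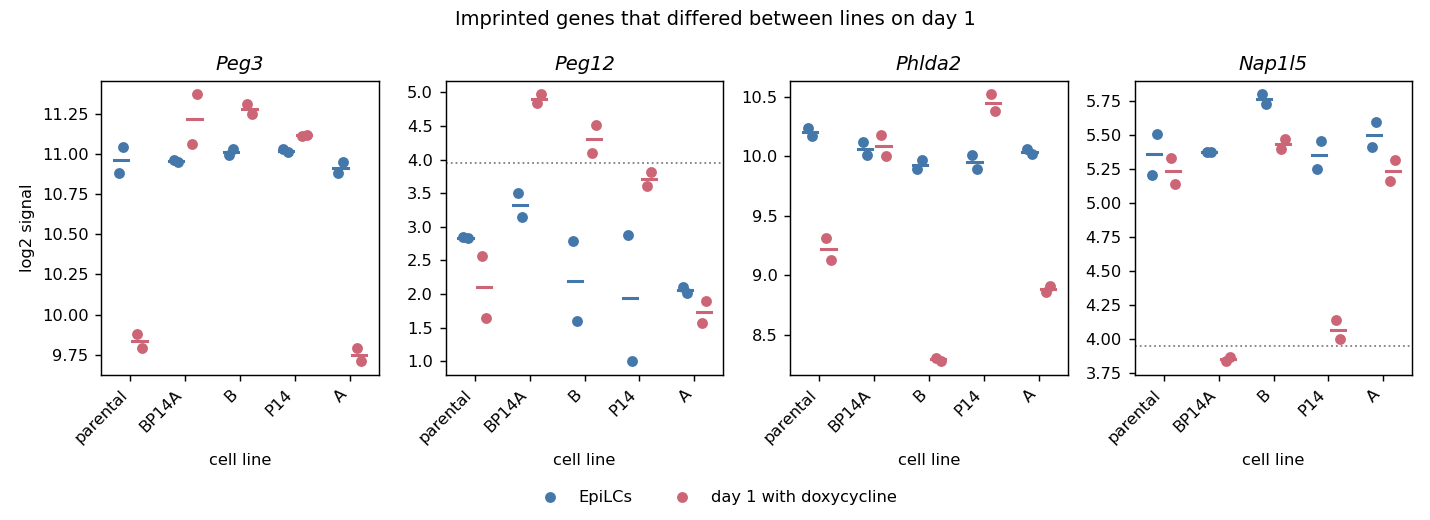
Log2 signal of Peg3, Peg12, Phlda2 and Nap1l5 in each array (points) with the group mean (bar); the dotted line is the filter level of 3.95 where a panel reaches down to it. On day 1 the parental and A arrays of Peg3 lie at 9.71 to 9.88 and the other 3 lines at 11.06 to 11.37.

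The rest of the Kcnq1 domain showed other patterns. Ascl2, a maternally expressed basic helix-loop-helix factor needed for the placenta, fell from EpiLCs to day 1 in all 5 lines. It read 6.85 and 6.77 in parental EpiLCs and 4.58 and 4.42 in parental aggregates, a fall by 2.31 (SE 0.12, adjusted p 9.63e-08). The falls in the other lines were -2.34 in A, -2.28 in P14, -2.21 in B and -1.71 in BP14A on the log2 scale, and all 3 of its probe sets were called in every line. Among all genes 6.59% were called in the parental change, 6.12% in A, 8.06% in P14, 9.72% in B and 10.6% in BP14A. Cdkn1c, the cell cycle inhibitor p57, read 7.18 and 6.86 in P14 EpiLCs and 7.75 and 7.17 in P14 aggregates, against 7.66 and 7.73 and then 7.16 and 6.98 in the parental line. Its change in P14 less the parental change was 1.06 ± 0.29 (adjusted p 0.0341), which was not called when dim probe sets were kept in the test (adjusted p 0.0539). Leaving out some single arrays also ended the call, and without the first P14 aggregate the value was 0.78. Cd81, a tetraspanin, fell by 1.05 in BP14A, from 11.18 and 11.22 to 10.25 and 10.04. Tssc4 and the paternally expressed antisense RNA Kcnq1ot1, which silences the domain in cis, were called in no comparison.

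Nap1l5, a paternally expressed member of the nucleosome assembly protein family on chromosome 6, was lower on day 1 in the BP14A and P14 lines. It read 5.33 and 5.14 in parental, 3.84 and 3.87 in BP14A, 4.14 and 4.00 in P14, 5.40 and 5.47 in B and 5.16 and 5.32 in A aggregates. All 10 EpiLC arrays lay between 5.21 and 5.80. Thus the 4 BP14A and P14 aggregates stood apart from the other 16 arrays, at or close to the limit of 3.95. The difference from parental was -1.38 ± 0.11 in BP14A (adjusted p 2.29e-06) and -1.16 ± 0.11 in P14 (adjusted p 1.21e-05). Against the parental change the values were -1.40 ± 0.16 and -1.16 ± 0.16. The low arrays are near background, so the size is approximate. Its promoter is the window with the PRDM14 match, and whether PRDM14 binds there or has a part in the difference was not tested.

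Zdbf2, a paternally expressed zinc finger gene on chromosome 1 whose early transcript sets its later expression, was higher in P14 aggregates than in any other group. It read 8.44 and 8.45 in parental, 10.02 and 10.11 in P14, 8.06 and 8.54 in BP14A, 8.57 and 8.14 in B and 8.39 and 8.22 in A aggregates. The P14 line was higher than parental by 1.62 ± 0.19 on day 1 (adjusted p 6.75e-05). Before doxycycline the P14 arrays already read 8.81 and 8.78 against 7.62 and 8.23 in the parental line, a difference of 0.87 that was not called (adjusted p 0.272). The change over time in P14 exceeded the parental change by 0.75, which was not called either (adjusted p 0.11). BP14A, also labelled with the Prdm14 transgene, differed from P14 on day 1 by -1.76 ± 0.19 (adjusted p 0.000299). Before doxycycline the BP14A arrays already read 7.96 and 7.94, below those of P14, so part of this gap was there in EpiLCs.

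Dcn, the extracellular proteoglycan decorin, imprinted mainly in placenta, was the other gene on which P14 and BP14A parted. It read 7.27 and 7.22 in parental, 6.17 and 6.19 in BP14A and 8.08 and 7.85 in P14 aggregates. The BP14A line differed from parental by -1.06 ± 0.19 (adjusted p 0.000934), and P14 stood 0.72 above it, not called. From EpiLCs Dcn fell in BP14A by 1.91 and in A by 1.03. Decorin is also made by fibroblasts, and the fibroblast list, which does not hold Dcn, had mean levels of 3.64 to 3.68 in the BP14A aggregates and 3.52 to 4.57 over all arrays. Thy1, on that list, was lower as well in BP14A, at -3.04 ± 0.20 against parental (adjusted p 2.81e-07) and -2.22 against EpiLCs, and its part in the Dcn result was not tested. In P14, where Dcn was not called, Thy1 stood at -2.62 against parental. A second, dim probe set of Dcn did not pass the filter, and the mean of both gave -0.36 in BP14A against parental.

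Few differences between lines were called in EpiLCs, before doxycycline. Summed over 4 lines, 22 genes were called against parental, 3 of them among the imprinted genes: H13 in A, Slc38a4 in P14 and Nnat in BP14A. The background was 0.0286% of all genes in A, 0.0357% in P14, 0.0143% in BP14A and 0.0785% in B, and 3.03% of the 33 genes is 1 gene. In B none of the 33 was called by limma, with 8 at an unadjusted p under 0.05 among 1516 of all genes. The same counts were 10 among 819 in P14, 6 among 1046 in BP14A and 5 among 1079 in A. The median of the 33 genes was 0.01 in A, -0.03 in P14, 0.03 in BP14A and 0.07 in B, against -0.01, -0.01, -0.01 and 0.02 over all genes.

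H13, a signal peptide peptidase on chromosome 2 for which the maternal copy makes the full-length RNA, was the lowest in the A line at both stages. It read 6.51 and 6.82 in A against 8.11 and 8.43 in parental EpiLCs, and 7.26 and 7.35 against 9.16 and 8.89 on day 1. No A array overlapped any of the other 16 arrays, which lay between 8.11 and 9.33. The difference was -1.60 ± 0.14 in EpiLCs (adjusted p 0.000621) and -1.72 ± 0.14 on day 1 (adjusted p 0.000292). The call rests on the brightest of 6 probe sets, and the other 5 were not called, and the mean over all 6 gave -0.19 and -0.74, also not called. Mcts2, a paternally expressed retrogene that lies within the span of H13, read 10.45 and 10.43 in A against 9.70 and 9.87 in parental EpiLCs, and 10.14 and 10.16 against 9.56 and 9.64 on day 1. The A arrays were the highest of any line at each stage. The differences of 0.66 ± 0.07 (adjusted p 0.00212) and 0.55 ± 0.07 (adjusted p 0.0104) passed the p threshold but lay under the limit of 1. Mcts2 is a copy of Mcts1, and whether its probe set also reads Mcts1 was not tested. H13 was the only one of the 33 genes called in A against parental on day 1, where 0.0286% of all genes were called.

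Slc38a4, a paternally expressed amino acid transporter, read 9.36 and 9.27 in parental EpiLCs, 7.84 and 7.86 in P14, 8.49 and 8.37 in B, 8.58 and 8.54 in BP14A and 8.78 and 9.08 in A. Every array of the 4 derived lines lay below the parental arrays, and the P14 arrays lay lowest. P14 differed from parental by -1.47 ± 0.14 (adjusted p 0.00063), and both probe sets of the gene were called there. B was at -0.89 ± 0.14 (adjusted p 0.0304), under the limit. On day 1 the B line was called at -1.08 ± 0.14 (adjusted p 0.000304), from 7.47 and 7.90 against 8.69 and 8.85 in parental, and P14 was at -0.94. In neither line did the change over time differ from the parental change by the test (-0.20 in B, adjusted p 0.604, and 0.53 in P14, adjusted p 0.122). The day 1 call in B became -0.87 without the first B aggregate and was lost.

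Nnat, a paternally expressed membrane proteolipid, read 7.06 and 7.28 in BP14A EpiLCs against 5.67 and 6.23 in parental EpiLCs. The other lines lay between 5.90 and 6.34. The BP14A difference of 1.22 ± 0.18 had an adjusted p of 0.0384, and it was no longer called under 4 of 6 other ways of processing. On day 1 the BP14A arrays read 7.40 and 7.55 and the parental arrays 6.70 and 7.09, a difference that was not called.

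**Figure D3:**
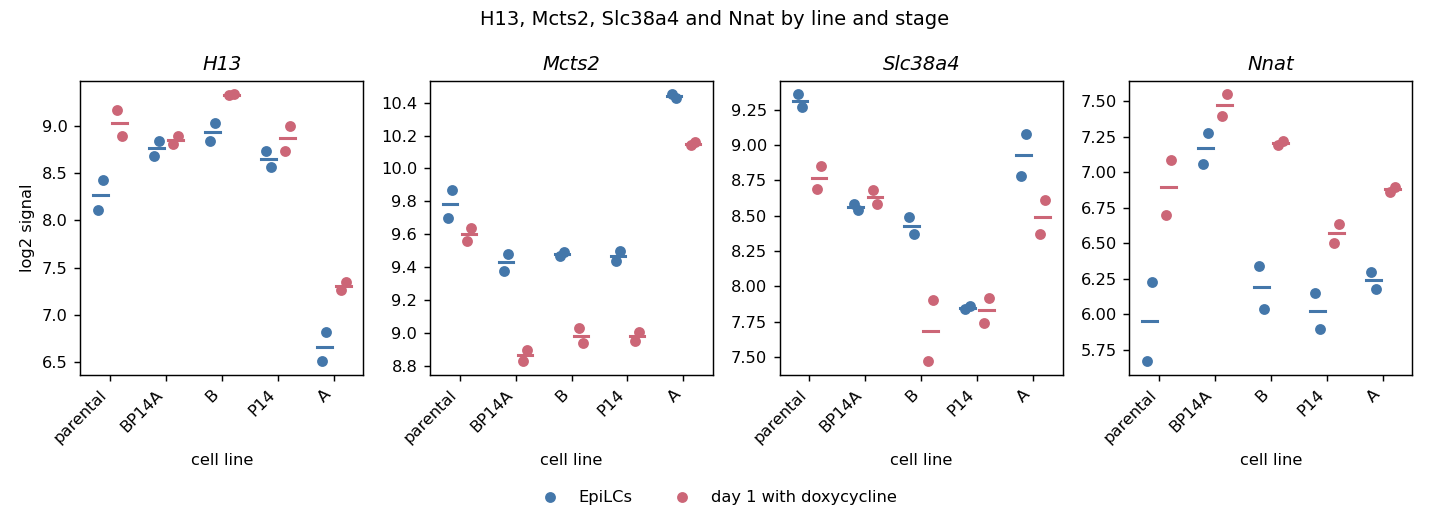
Log2 signal of H13, Mcts2, Slc38a4 and Nnat in each array (points) with the group mean (bar). The A arrays of H13 lie at 6.51 to 7.35 at both stages, below every other array, and the P14 arrays of Slc38a4 at 7.74 to 7.92.

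Set side by side, 16 calls of 10 genes were made on day 1 against the parental line over the 4 derived lines. Of these calls, 15 had no call in the EpiLCs of the same line, and 1, H13 in A, had. Such a count does not show that each difference arose after doxycycline. Slc38a4 in B and Zdbf2 in P14, for example, were already offset by -0.89 and 0.87. In contrast, Mirg and Nap1l5 in BP14A and P14, Peg3 in BP14A, B and P14, Rian and Dcn in BP14A and Phlda2 in P14 were called both on day 1 and for the change over time less the parental change. On day 1, 18.2% of the 33 genes were called in BP14A and in P14 and 9.09% in B, against 6.62%, 5.38% and 2.6% of all genes. Peg12, whose calls are no support for a difference, is counted in each of these lines. The median of the 33 genes on day 1 was -0.17 in BP14A, -0.17 in P14, 0.17 in B and -0.08 in A, against -0.01, -0.04, 0.02 and -0.03 over all genes. In the A line the change over time differed from the parental change for 0 of the 33 genes and 0 of all genes by limma. At an unadjusted p under 0.05 this was 0 and 652.

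**Figure D4:**
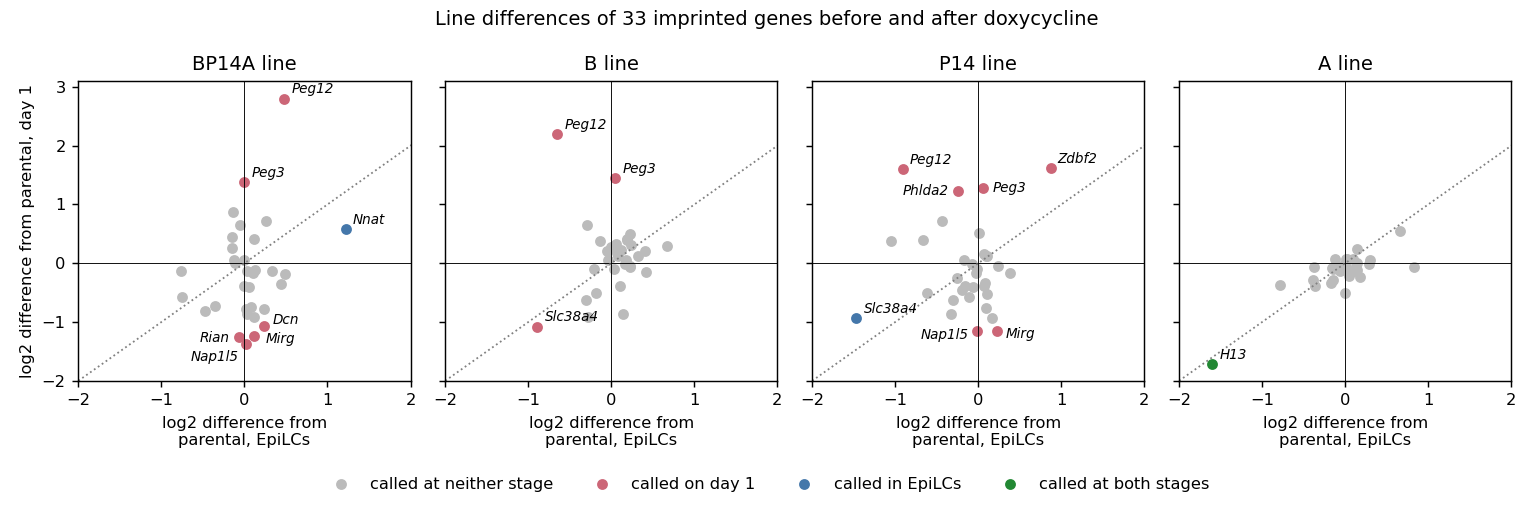
Each point is 1 of 33 imprinted genes, with its log2 difference from the parental line in EpiLCs (horizontal) and on day 1 (vertical), 1 panel a line; the dotted line marks equal differences. H13 in A lies near the dotted line at -1.60 and -1.72, while Peg3 in BP14A, B and P14 lies near 0 in EpiLCs and between 1.28 and 1.45 on day 1.

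The largest changes over time were common to the lines. Impact, a paternally expressed regulator of the translation kinase GCN2, rose in all 5 lines, from 8.80 and 8.96 to 10.62 and 10.57 in the parental line (1.71 ± 0.08, adjusted p 4.82e-08) and from 8.77 and 8.88 to 11.23 and 11.26 in BP14A (2.42 ± 0.08). The rise was 2.21 in P14, 1.95 in B and 1.55 in A. It was seen in the brightest of 3 probe sets only, the other 2 being uncalled in every line, and the mean of the 3 gave 0.44 in A to 0.90 in P14, not called. Plagl1, a paternally expressed zinc finger regulator of growth, rose in 4 lines, by 1.71 in parental, 2.03 in BP14A, 1.94 in P14 and 1.58 in A. The mean with its 2 dim probe sets gave 0.62 in A to 1.23 in BP14A, not called in any of these lines. In B it went from 6.09 and 5.73 to 6.77 and 6.49, a change of 0.72, and the B change was smaller than the parental change by just under the limit (adjusted p 0.0263). Gnas, the gene of the stimulatory G protein alpha subunit with several imprinted promoters, rose by 1.19 in B and 1.03 in A, and was 0.98 higher in the parental line, where it was not called. Its 3 other tested probe sets were not called in these lines, and the mean of all its probe sets gave 0.28 in B and 0.32 in A.

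Other changes were called in fewer lines. In the P14 line, Asb4, a maternally expressed ankyrin-repeat gene, rose by 1.47 ± 0.43 (adjusted p 0.0173) from near background, and by 0.37 with values raised to 3.95. Nnat rose by 1.01 in B, and by 0.94 when array medians were centred. Mirg and Nap1l5 fell in BP14A (-1.30 and -1.53) and P14 (-1.31 and -1.28) and in no other line. In all, 4 of the 33 genes were called in the parental change, 8 in BP14A, 8 in P14, 6 in B and 7 in A, or 12.1%, 24.2%, 24.2%, 18.2% and 21.2%. The shares of all genes called were 6.59%, 10.6%, 8.06%, 9.72% and 6.12%. Peg12 is 1 of the genes counted in BP14A, P14 and B, and Asb4, with 7 of its 10 group means below the limit, is 1 of those in P14.

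**Figure D5:**
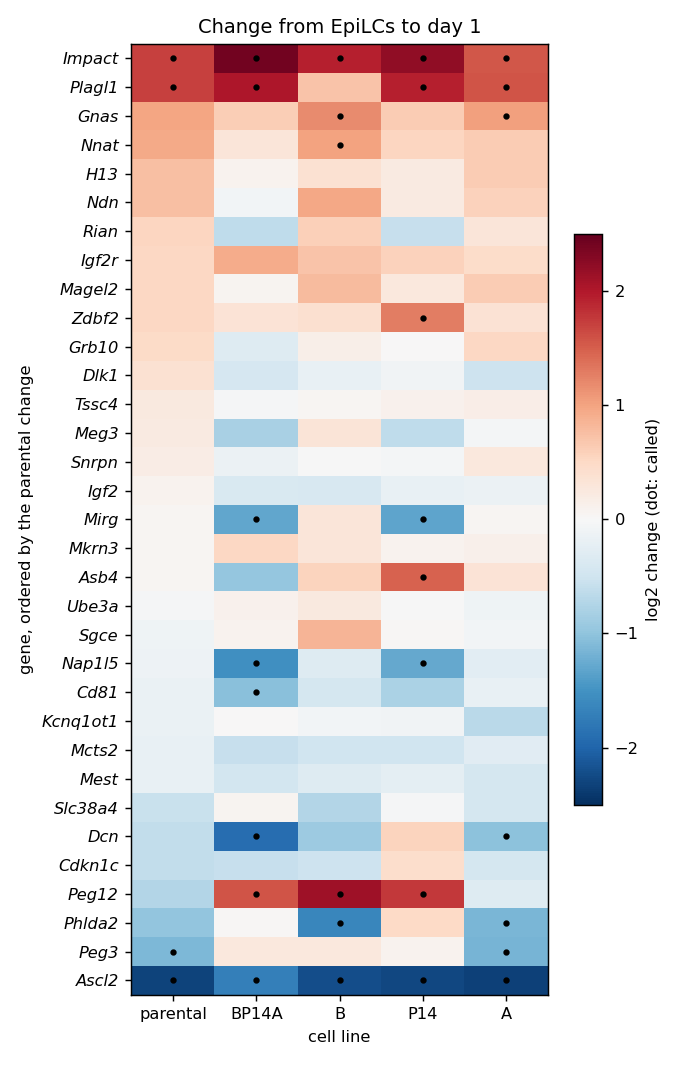
Log2 change from EpiLCs to day 1 of 33 imprinted genes (rows, ordered by the parental change) in 5 lines (columns); a dot marks a called change. Impact is red and Ascl2 blue in every line, from 1.55 to 2.42 and from -2.34 to -1.71, and Peg3 is blue only in the parental and A columns.

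Comparisons between the induced lines, chosen after the data had been seen, were made on day 1. They do not remove differences between these lines that were already present in EpiLCs. P14 and B differed in 7 of the 33 genes, or 21.2%, against 6.55% of all genes. Phlda2 was higher in P14 by 2.15 ± 0.08 (adjusted p 7.27e-09) and Zdbf2 by 1.71. In EpiLCs Zdbf2 already averaged 8.80 in P14 against 7.95 in B. On day 1 Mirg was lower in P14 by 1.64 on the log2 scale (-1.64 ± 0.10, adjusted p 2.85e-07), and Nap1l5 (-1.36), Ndn (-1.27), Sgce (-1.15) and Rian (-1.07) lay on the same side. Mirg gave -0.97 with the mean of its probe sets, and Rian -0.84 without the first B aggregate, both under the limit. Sgce is the paternally expressed epsilon-sarcoglycan. BP14A against B gave 9 calls, or 27.3%, against 6.47% of all genes. These were Phlda2 and Plagl1 on the higher side and Meg3, Rian, Mirg, Ndn, Sgce, Nap1l5 and Dcn on the lower side. The Dcn call was lost with medians centred (-0.94), with quantile normalization (-0.94) and with the mean of its probe sets (-0.48). Plagl1 gave 0.88 with the mean of its probe sets, not called. Meg3 gave -0.83 without the first BP14A aggregate and -0.95 without the first B aggregate, under the limit. BP14A and P14 differed in 2 genes, Zdbf2 and Dcn, or 6.06%, against 1.05% of all genes. Here Dcn gave -0.24 with the mean of its probe sets, not called.

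Of the 33 tested genes, 21 were called in at least 1 of the 20 comparisons and 12 in none. That is 63.6%, against 21.5% of all genes called in at least 1. Peg12 and Asb4, with most group means below the limit, are among the 21. The 12 are Dlk1, Grb10, Igf2, Igf2r, Kcnq1ot1, Magel2, Mcts2, Mest, Mkrn3, Snrpn, Tssc4 and Ube3a. Their differences lay between -0.93 and 0.93 in every comparison. They include both arms of the growth pathway of IGF2, the growth factor itself and its clearance receptor Igf2r, and the growth factor adaptor Grb10. A p or a size that misses the threshold does not show that these genes were alike in the lines.

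A wider list of 35 other imprinted genes had 29 on the array, of which 21 were tested. By limma 0 were called in EpiLCs in any line, with 1 (P14) or 2 (the other lines) at an unadjusted p under 0.05. In EpiLCs at most 0.0785% of all genes were called in any line, so 0 of 21 says little about this list. On day 1 against parental, 2 were higher and 1 lower in BP14A and in P14, and 1 was lower in B. In A 0 were called, and 2 had an unadjusted p under 0.05. Among all genes 6.62% were called on day 1 in BP14A, 5.38% in P14, 2.6% in B and 0.0286% in A. Sfmbt2, a paternally expressed Polycomb protein, was higher by 1.46 in BP14A and 1.22 in P14. Cobl, an actin nucleator, was higher by 1.59 and 1.53, and the calcitonin receptor Calcr was lower, at -1.10 and -1.56. Tnfrsf22, a decoy receptor of the Kcnq1 region, was lower in B, at -1.36. The median of the 21 genes was 0.21 in BP14A, -0.02 in P14, 0.09 in B and -0.12 in A, against -0.01, -0.04, 0.02 and -0.03 for all genes.

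A list of 18 genes that set, keep or erase imprints had 17 on the array and 16 tested. By limma 0 were called in EpiLCs, with 1 in BP14A at an unadjusted p under 0.05. At most 0.0785% of all genes were called there in any line. On day 1 the de novo methyltransferase Dnmt3b was lower than parental in BP14A (-3.34 ± 0.10, adjusted p 9.02e-10) and P14 (-2.07 ± 0.10, adjusted p 5.23e-08). Dnmt3a was lower in BP14A (-1.27) and in B (-2.19). Dppa3, also called stella, which protects imprints in the early embryo, was higher in BP14A (5.36), P14 (3.64) and B (2.68). From EpiLCs to day 1 the cofactor Dnmt3l fell in all 5 lines, by 3.50 in the parental line. Dnmt3a also fell over time in all 5 lines. Its change was -1.21 in parental, -1.23 in A, -1.05 in P14, -2.51 in BP14A and -3.20 in B. Zfp57, the reader of methylated imprints, averaged 4.96 to 5.67 over the groups and was not called.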

How the data were processed

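RNA of 20 samples was measured on 1-colour mouse expression arrays. Per the labels, column-purified total RNA was made into biotin-labelled cRNA by a one-cycle protocol. The authors' deposited table gives the signal of every probe set as log2 values. The base of the logarithm was inferred from the range of the values, and the normalization is unstated (not given in the sources used here). Values were used as deposited. The 34945 probe sets with 1 gene in the platform annotation were used. The 932 with several genes and 64 control probe sets were left out. Probe sets with a highest group mean under the 40th percentile (3.95) were dropped, and each gene was read from its probe set with the highest mean, which gave 14010 genes.

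limma 3.58.1 in R 4.3.3 fitted 10 group means to 20 arrays (10 residual and 1.79 prior degrees of freedom). P values are two-sided and Benjamini-Hochberg adjusted over all genes, and genes were called at an adjusted p under 0.05 with a log2 difference of 1 or more. The script was tested on simulated data. Replicate numbers were not used to pair the samples in the main fit. The imprinted genes and lists were chosen with earlier results of these data known. All 38 genes are named. Per-array values are given for most genes called in at least 1 comparison, for some of them in part of the groups only. Gnas, Asb4 and Sgce are given by differences. Most other genes are given by range, with at most 6 called genes per list and comparison. Alternatives were array-median centring, quantile normalization, no filter, the mean of all probe sets, flooring at 3.95, a replicate block and leaving out each array. The 3 comparisons between induced lines and the fit of single probe sets were added after seeing the data. P values measure only the spread between these samples, which the series calls biological duplicates. Sequences are from RefSeq tables (GRCm38.p6).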

Additional observations from a re-analysis of the deposited data

Results flagged for a closer look

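The change from EpiLCs to day 1 differed between a derived line and the parental line, by the test of that difference, for 18 pairs of gene and line among the 33 imprinted genes. In BP14A the log2 difference of the changes was 2.32 for Peg12, 1.38 for Peg3 and 1.01 for Phlda2 on the higher side, and -1.04 for Meg3, -1.18 for Rian, -1.35 for Mirg, -1.40 for Nap1l5 and -1.30 for Dcn on the lower side. In P14 it was 2.51 for Peg12, 1.48 for Phlda2, 1.22 for Peg3, 1.16 for Dcn and 1.06 for Cdkn1c on the higher side, and -1.11 for Rian, -1.37 for Mirg and -1.16 for Nap1l5 on the lower side. In B it was 2.84 for Peg12 and 1.40 for Peg3. The Peg12 values rest on signals below the limit of 3.95 in 8 of 10 groups, and their calls in BP14A and P14 ended with medians centred (adjusted p 0.0523 and 0.0525), with quantile normalization, without the filter, with the mean of probe sets and with the floor. Dcn is the only 1 of these genes with opposite signs in BP14A and P14. With the mean of both its probe sets the values were 0.25 and 0.67, of the same sign and not called. The P14 value of Dcn was 0.95 without the second parental EpiLC array, under the limit. The Cdkn1c value was 0.78 without the first P14 aggregate. The comparisons share the parental arrays. Groups of 2 arrays are too small for a test of an outlying sample.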

How the results depend on the processing

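Of 88 calls of imprinted genes over 20 comparisons, 31 were kept under all 6 alternatives and every array left out, 57 were lost in at least 1 setting, and 1 reversed. The reversed value is Dcn in BP14A less the parental change, which became 0.25 as the mean of its probe sets, 1 of them dim. Taking the mean of all probe sets, which brings dim ones in, lowered the counts most: from 1 to 0 for A in EpiLCs and for A on day 1, from 4 to 1 for the parental change over time, from 8 to 5 for P14 and from 7 to 2 for A over time, from 8 to 4 for BP14A and from 8 to 3 for P14 less the parental change, and from 2 to 1 for BP14A against P14. The 1 call of BP14A EpiLCs, Nnat, became 0 with medians centred, with no filter, with the mean of probe sets and with the replicate block. In B less the parental change 2 calls became 1 with no filter, with the mean of probe sets and with the floor. The cause of these losses was not tested beyond the settings' own construction. The replicate block changed no other count of imprinted genes. Deviations of replicate 1 from the group means correlated between groups at a median of 0.024 over 45 pairs of groups. The correlations ranged from -0.065 to 0.196, with a share of 0.133 over 0.1. A replicate effect shared by some groups only, such as those of a single stage, was not tested. Centring moved the median of all genes by at most 0.095.

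With each array left out in turn, the lone array being assumed to vary like other groups, the counts ranged in EpiLCs from 0 to 2 in BP14A, 0 to 0 in B, 1 to 1 in P14 and 1 to 1 in A. On day 1 they ranged from 5 to 8, 2 to 3, 5 to 7 and 1 to 1. Over time they ranged from 5 to 6 in parental, 7 to 10 in BP14A, 5 to 8 in B, 6 to 7 in P14 and 6 to 7 in A. Less the parental change they ranged from 4 to 8 in BP14A, 1 to 3 in B and 4 to 7 in P14, and stayed at 0 in A. Between induced lines they ranged from 7 to 11 for BP14A against B, 2 to 2 for BP14A against P14 and 7 to 8 for P14 against B. For BP14A less the parental change, 4 were left without the first BP14A aggregate and 5 without the second parental aggregate. For P14 it was 5 without the first P14 aggregate, 4 without the second parental EpiLC array and 4 without the second P14 EpiLC array. For B it was 1 without the first parental EpiLC array. Signals near the limit, as of Peg12, Asb4, Dlk1 and low Nap1l5, allow no firm size.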
